A study of Mus musculus with 4 samples.

Results

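The Nr4a, Egr and Ier genes are immediate early genes, a class defined by rapid transcription after a stimulus without a need for new protein synthesis. The members were the transcript clusters of the exon array whose platform annotation holds a single gene symbol equal to Nr4a1, Nr4a2, Nr4a3, Egr1, Egr2, Egr3, Ier2, Ier3 or Ier5. All 9 were measured, with 1 cluster each, among 16658 clusters, of which 14938 carried a single symbol. RNA came from C2C12, a mouse myoblast line that fuses into muscle fibres when growth factors are withdrawn. Differentiation cells (2 arrays) had been given 2% horse serum at full confluency and were harvested 24 h later, while growth cells (2 arrays) were harvested at 60 to 70% confluency in 10% fetal bovine serum. The study asks how mRNA 3′ ends change as these cells differentiate. The cells of both conditions were of the same line, unmodified as far as the labels say, and the submitters call the 2 arrays of a condition biological replicates without describing the cultures.

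Serum is itself a classical trigger of immediate early genes, and its kind, its amount and the cell density all differed with the condition, so their parts in any difference cannot be told apart from that of differentiation. The first hours after the switch, when a pulse of these genes would pass, were not sampled. In RNA from whole cultures, a change in the number of expressing cells and a change in RNA per cell also cannot be told apart.

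The Nr4a proteins are orphan nuclear receptors (Nur77, Nurr1 and Nor-1) whose activity is set largely by how much is made, since they lack an open pocket for a classical ligand. They bind DNA as monomers or dimers, are induced by cyclic AMP, calcium and growth factors, and in skeletal muscle are known for induction by adrenergic signals and exercise and for a role in glucose and lipid use. The Egr proteins are zinc finger transcription factors that lie downstream of the ERK kinases and the serum response factor. The Ier genes encode small proteins with no shared DNA-binding domain.

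The labels were checked first. Of 7 myoblast markers, 4 were higher in differentiation cells, among them the myogenic factor genes Myog (1785 ± 148.4 in differentiation and 674 ± 38.6 in growth, mean intensity ± SD, n = 2 each) and Myod1. All 4 measured proliferation markers were lower, with Mki67 at 80.1 ± 16.1 in differentiation and 454 ± 123.8 in growth. Over 11 markers of endothelial, blood, fat, bone, glial and epithelial cells the summed intensity was 909.5 and 914 on the differentiation arrays and 1508 and 1185 on the growth arrays, 3 of them (Ptprc, Krt14 and Cd68) were lower in differentiation, and none was at 0 on every array; the part of other cells in the results was not tested. Myog and Mki67 passed with every single array left out, while Myod1 and these 3 lost their calls without growth replicate 1 or differentiation replicate 1. Without differentiation replicate 2, the calls of Myod1, Ptprc and Cd68 were lost as well. Myod1, Krt14 and Cd68 lost theirs with an offset of 1 too. Median intensities of the arrays lay between 167.8 and 177.2. Changes are log2 differences, differentiation minus growth, of intensities to which 16 was added, with the standard error (SE) of limma, a linear model with pooled variances, and p-values adjusted by Benjamini-Hochberg over all clusters (threshold 0.05). The offset understates the change of dim genes. Intensities of different genes come from different probes and are not set against each other, and the number of arrays limits the precision of each value.

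In differentiation cells 2 of the 9 genes, Nr4a1 and Nr4a3, were higher and none was lower; at an unadjusted limma p under 0.05 the counts were 3 and 1. Over all clusters 8.64% were called higher and 7.52% lower. Both genes that rose are among the 3 Nr4a genes, and no Egr or Ier gene passed the threshold (at an unadjusted p, 1 Egr gene was higher and 1 Ier gene lower). The arrays of the conditions did not overlap for 8 of the 9, with differentiation above growth for 5 and below it for 3, where 30.8% and 30.1% of all clusters lay apart in those directions. The median change of the 9 was 0.10, against -0.01 over all clusters.

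**Figure D1:**
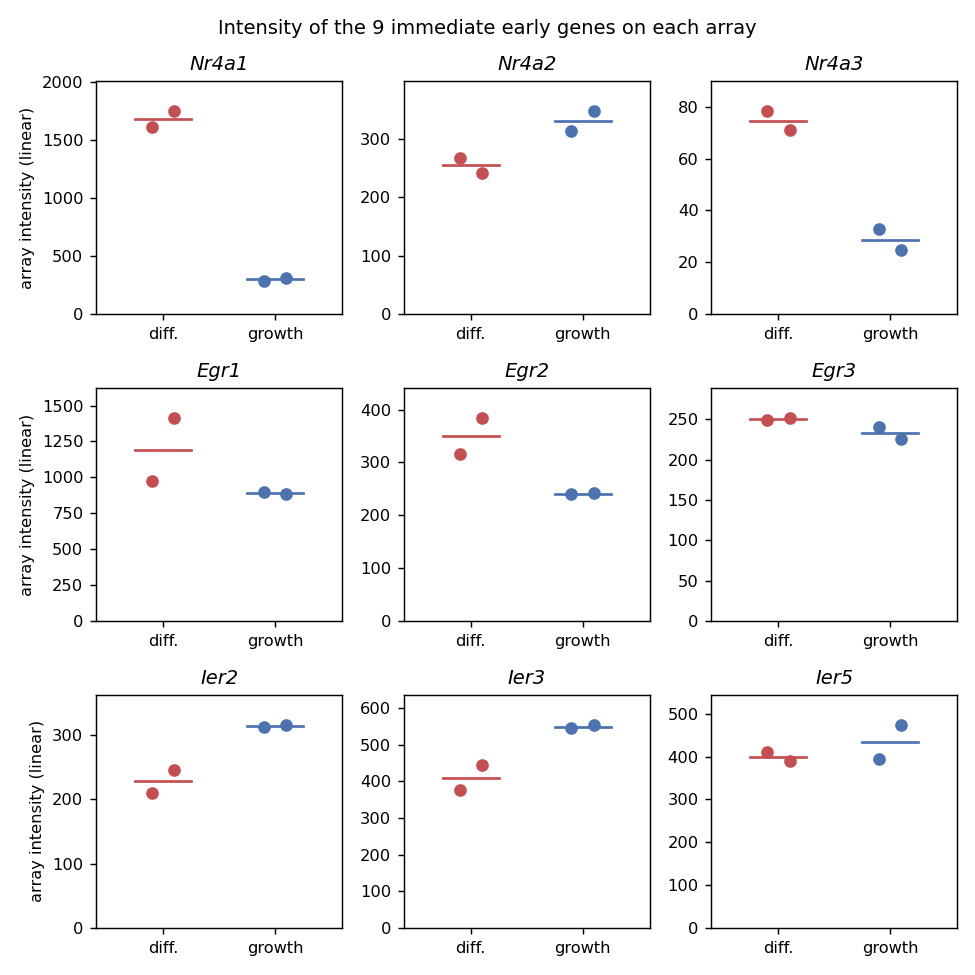
Linear array intensity (vertical axes, each starting at 0) of the 9 genes on the 2 differentiation arrays (left, red) and the 2 growth arrays (right, blue); points are arrays and lines are means. Nr4a1 stands at 1616 and 1748 in differentiation and at 285 and 317 in growth, and Ier5 is the gene whose conditions overlap.

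Nr4a1, which encodes Nur77, had the largest change of the 9. Its intensity was 1616 and 1748 on the differentiation arrays, against 285 and 317 on the growth arrays. Both differentiation arrays were thus several times brighter than either growth array. The means were 1682 ± 93.3 in differentiation and 301 ± 22.8 in growth (SD, n = 2 each), a ratio of 5.59. The log2 change was 2.42 ± 0.18 SE (limma adjusted p = 0.000187, 95% interval 2.00 to 2.84), and 14 clusters of the array rose further, which put Nr4a1 at rank 15.

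Nr4a3, which encodes Nor-1, rose from a dim signal. It read 78.1 and 71 in differentiation, against 32.7 and 24.8 in growth, so both arrays of differentiation lay above both of growth. Its mean over the 4 arrays was at the 24.6th percentile of all clusters, and the files hold no detection call that would separate such a value from background. The log2 change was 1.02 ± 0.19 SE (limma adjusted p = 0.0105), with a ratio of means of 2.59 before the offset. The call was lost without differentiation replicate 1 (log2 change 0.97, limma adjusted p = 0.0871), without differentiation replicate 2 (1.08, adjusted p = 0.0747) and when a change of at least 1.5-fold was required (adjusted p = 0.377).

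Nr4a2, which encodes Nurr1, a factor best known in dopamine neurons, did not pass the threshold. It read 268 and 243 in differentiation, against 314 and 347 in growth, so its differentiation arrays were the lower ones. The log2 change of -0.35 ± 0.18 SE did not pass (limma adjusted p = 0.218), and its 95% interval, -0.77 to 0.07, did not meet those of Nr4a1 or Nr4a3 (0.58 to 1.46); the difference between these genes' changes was not tested.

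The promoters of the Nr4a genes are shown because all 3 carry the same short element in the same number. TGACG is the core of the site bound by CREB, the factor through which cyclic AMP acts. In RefSeq promoters (build GRCm38.p6, from 250 bases before to 50 after each start), each of Nr4a1, Nr4a2 and Nr4a3 held 4 copies of TGACG, counting both strands. Of 32851 promoters, 20.8% held at least 1 copy and 76 (0.231%) held 4 or more. The cutoff of 4 equals the number found in these 3 genes, so this last share is a description and no test of them. For each gene 2 of the 4 copies are printed, 5′ to 3′ along the gene, with TGACG or its reverse complement CGTCA in capitals; the position given is that of its first base, and a neighbouring copy in the same window is left in lower case. The windows lie at chr15:101266620-101266649 and chr15:101266793-101266822 (Nr4a1, plus strand), chr4:48045087-48045116 and chr4:48045145-48045174 (Nr4a3, plus strand) and chr2:57124131-57124160 and chr2:57124098-57124127 (Nr4a2, minus strand).
Nr4a1, 213 bases before the start: ggaaccccgcgtgCGTCAcgcgcgcagaca
Nr4a1, 40 bases before the start: gcccctctccatgCGTCAcggagcgcttaa
Nr4a3, 205 bases before the start: catgtcgtcacatTGACGtctcgcattcca
Nr4a3, 147 bases before the start: cctgtggcataaaTGACGtgccgagagagc
Nr4a2, 144 bases before the start: cgccggctgcacgCGTCAcggagcccggcc
Nr4a2, 111 bases before the start: ctgacggggccgcTGACGcgcttggccgcg

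Nr4a1 and Nr4a3 rose and Nr4a2 did not pass, with 4 copies in each. A match is a run of letters and was not measured as a bound site. The full palindrome TGACGTCA, which holds TGACG on both strands and occurred in 1.79% of all promoters, was in none of the promoters matched to the 9 genes, and neither was AAAGGTCA, the element that Nr4a proteins bind (1.51% of promoters).

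Egr1 and Egr2 read higher in differentiation without passing. Egr1, the serum-induced zinc finger factor commonly used as a readout of ERK signalling, read 975 and 1412 in differentiation, against 898 and 883 in growth. The differentiation arrays disagreed more than for any other member, and the log2 change of 0.39 ± 0.22 SE (limma adjusted p = 0.253) was 0.13 without differentiation replicate 2 and 0.66 without differentiation replicate 1. Egr2, best known for its role in myelinating Schwann cells, read 317 and 384 in differentiation, against 239.8 and 243 in growth. Both differentiation arrays were above growth, with a log2 change of 0.50 ± 0.19 SE (limma adjusted p = 0.105; unadjusted p = 0.0280; 95% interval 0.07 to 0.94).

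Egr3, which is needed for muscle spindles to form, read 249 and 251 in differentiation, against 240.2 and 226 in growth. All 4 arrays were close together, and the log2 change was 0.10 ± 0.18 SE (limma adjusted p = 0.727), with a 95% interval of -0.31 to 0.51 that includes changes in either direction.

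**Figure D2:**
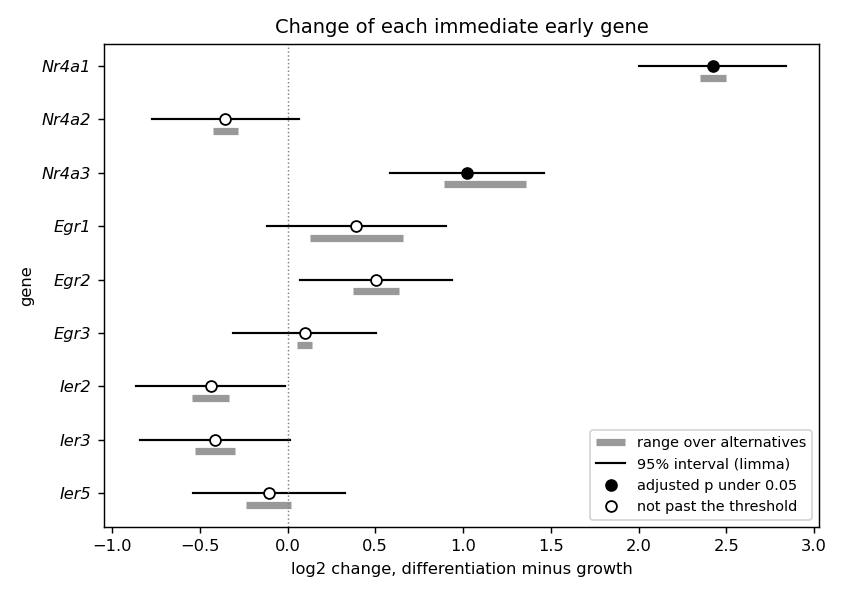
Change of the 9 genes (log2, differentiation minus growth, horizontal axis) with the 95% interval of limma as a black line and the range over the alternative settings as a grey bar; filled points passed an adjusted p of 0.05. Nr4a1 (2.42) and Nr4a3 (1.02) are filled, and the grey bar of Ier5 crosses 0.

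Of the 6 genes whose promoters were matched, Egr2 alone held a CArG box, the element bound by the serum response factor. It was in 4 of its 5 RefSeq promoters, which overlap in part, and in 1.63% of all 32851. These 4 are not 4 separate sites. The box printed below is the same genomic site in all but 1 of them, and that 1 holds a different box. Entries for 6 of the 9 genes were matched (Nr4a1, Nr4a2, Nr4a3, Egr2, Ier3 and Ier5), with 10 promoters in all. The promoters of Egr1, Egr3 and Ier2 had no entry and were not read for any element. The window is shown because it holds the CArG box and a copy of CGTCA, both in capitals, at chr10:67537793-67537822 on the plus strand of GRCm38.p6.
Egr2, CArG box 72 bases before 1 of its starts: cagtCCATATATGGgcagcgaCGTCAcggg

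GGGCGG, a GC box bound by Sp1-type factors, was in 7 of the 10 promoters, spread over all 6 matched genes, and in 35.7% of all promoters. TATAAA was in that of Nr4a2 alone among the 6 and in 13.6% of all. GCGTGGGCG, the Egr site, was in none of the 10 and in 0.612% of all.

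The Ier genes read lower in differentiation or overlapped. Ier2, which encodes a small nuclear protein induced by serum, read 210.3 and 246 in differentiation, against 312 and 316 in growth. Its differentiation arrays were below both growth arrays, and the log2 change of -0.44 ± 0.18 SE did not pass after adjustment (limma adjusted p = 0.141; unadjusted p = 0.0443). Ier3, also called IEX-1 and known as a regulator of cell survival, read 376 and 444 in differentiation, against 545 and 554 in growth. The order of the arrays was as for Ier2, with a log2 change of -0.41 ± 0.18 SE (limma adjusted p = 0.164; 95% interval -0.84 to 0.01). Ier5, which is known to act on the heat shock factor HSF1, read 410.4 and 390.2 in differentiation, against 394 and 474 in growth. The conditions overlapped, and the log2 change of -0.11 ± 0.19 SE (limma adjusted p = 0.719) turned to 0.020 without growth replicate 2.

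Relatives and partners of the 3 families were read next. Of 8 listed, 7 were measured, 1 rose (14.3%, where 8.64% of all clusters did) and 1 fell (14.3%, where 7.52% did). Rxra, the retinoid X receptor that pairs with Nr4a1 and Nr4a2, read 1176 and 1053 in differentiation, against 676 and 738 in growth (log2 change 0.64 ± 0.18 SE, limma adjusted p = 0.0494). Ier5l, a paralog of Ier5, read 220.1 and 241 in differentiation, against 464 and 434 in growth (-0.92 ± 0.18 SE, adjusted p = 0.0129). Its arrays lay apart, unlike those of Ier5. The call of Rxra was lost with any 1 array left out and that of Ier5l without growth replicate 1 or either differentiation array, and both with an offset of 1. Nab2, a corepressor that Egr factors induce and that curbs them in turn, read 694 and 837 in differentiation, against 970.2 and 1122 in growth, and did not pass (-0.44 ± 0.19 SE, limma adjusted p = 0.156).

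Upstream of these genes stand the ERK cascade, CREB with its coactivators, the Elk and Mrtf partners of the serum response factor, and Mef2 with the class IIa histone deacetylases that hold it in check. Of 40 such genes listed, 30 were measured. Of these, 5 rose (16.7%, where 8.64% of all clusters did) and none fell (where 7.52% of all clusters did). At an unadjusted limma p under 0.05 the counts were 10 and 3, and the median change was 0.25 against -0.01 over all clusters. Hdac4 rose most clearly, at 809.6 and 799.5 in differentiation, against 287 and 309 in growth (1.39 ± 0.18 SE, limma adjusted p = 0.00205). Its relative Hdac5 rose by 0.96 ± 0.20 SE (adjusted p = 0.0157). Both encode repressors of Mef2.

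The CREB coactivator gene Crtc3 read 257 and 288 in differentiation, against 115 and 146 in growth (0.99 ± 0.20 SE, limma adjusted p = 0.0138). Mef2c rose by 0.88 ± 0.21 SE (adjusted p = 0.0284), and Mef2d, dim on all 4 arrays, by 1.07 ± 0.22 SE (adjusted p = 0.0159). Of the 5, Hdac4 alone kept its call with any 1 array left out, and the other 4 lost it without growth replicate 1 or either differentiation array and with an offset of 1. Srf, the serum response factor gene, is itself an immediate early gene and was counted with the other genes of that class described next, not with these 30. It read 780.5 and 787 in differentiation, against 1204 and 1173 in growth, and narrowly missed the threshold (-0.59 ± 0.18 SE, limma adjusted p = 0.0572).

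Immediate early genes outside the 3 families moved in both directions. Of 57 listed, 52 were measured, of which 14 rose (26.9%, where 8.64% of all clusters did) and 10 fell (19.2%, where 7.52% did). The 4 smallest adjusted p among the rises belonged to Rgs2, a regulator of G protein signalling, Atf3, a stress-induced factor of the CREB and AP-1 class, and Zfp36l1 and Btg2, which act in mRNA decay and growth arrest. Rgs2 read 1459 and 1525 in differentiation, against 167 and 197 in growth (log2 change 2.93 ± 0.18 SE, limma adjusted p = 0.000161). Atf3 read 163 and 179 in differentiation, against 27.4 and 31.1 in growth (2.05 ± 0.18 SE, adjusted p = 0.000352). Zfp36l1 rose by 1.98 ± 0.21 SE and Btg2 by 1.32 ± 0.18 SE. These genes belong to the same class as Nr4a1 by induction, and the class was chosen with earlier results of these arrays known.

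The 4 smallest adjusted p among the falls belonged to Fosl1, Myc, Ccn2 and Id1. Fosl1, which encodes the AP-1 protein Fra-1, read 147 and 162 in differentiation, against 728 and 761 in growth (-2.16 ± 0.18 SE, limma adjusted p = 0.000282). Myc, the growth factor-induced driver of proliferation, read 694 and 637 in differentiation, against 1769 and 1722 in growth (-1.37 ± 0.18 SE, adjusted p = 0.00220). Ccn2, the connective tissue growth factor gene, changed by -1.33 ± 0.19 SE, and Id1, an inhibitor of myogenic factors, by -0.88 ± 0.20 SE (adjusted p = 0.0227). Of the 8 genes named for these rises and falls, Id1 lost its call whichever array was left out and with an offset of 1, and the other 7 lost it in none of these settings. Fos, the best known immediate early gene, was dim and overlapped between the conditions, at 65.5 and 43.9 in differentiation and 44.9 and 67.4 in growth (-0.03 ± 0.24 SE, adjusted p = 0.944). Leaving out differentiation replicate 1 left 7 rises and 3 falls, and leaving out differentiation replicate 2 left 6 rises and 3 falls. Of the growth arrays, dropping the first left 7 rises and 4 falls, and dropping the second 11 rises and 3 falls.

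**Figure D3:**
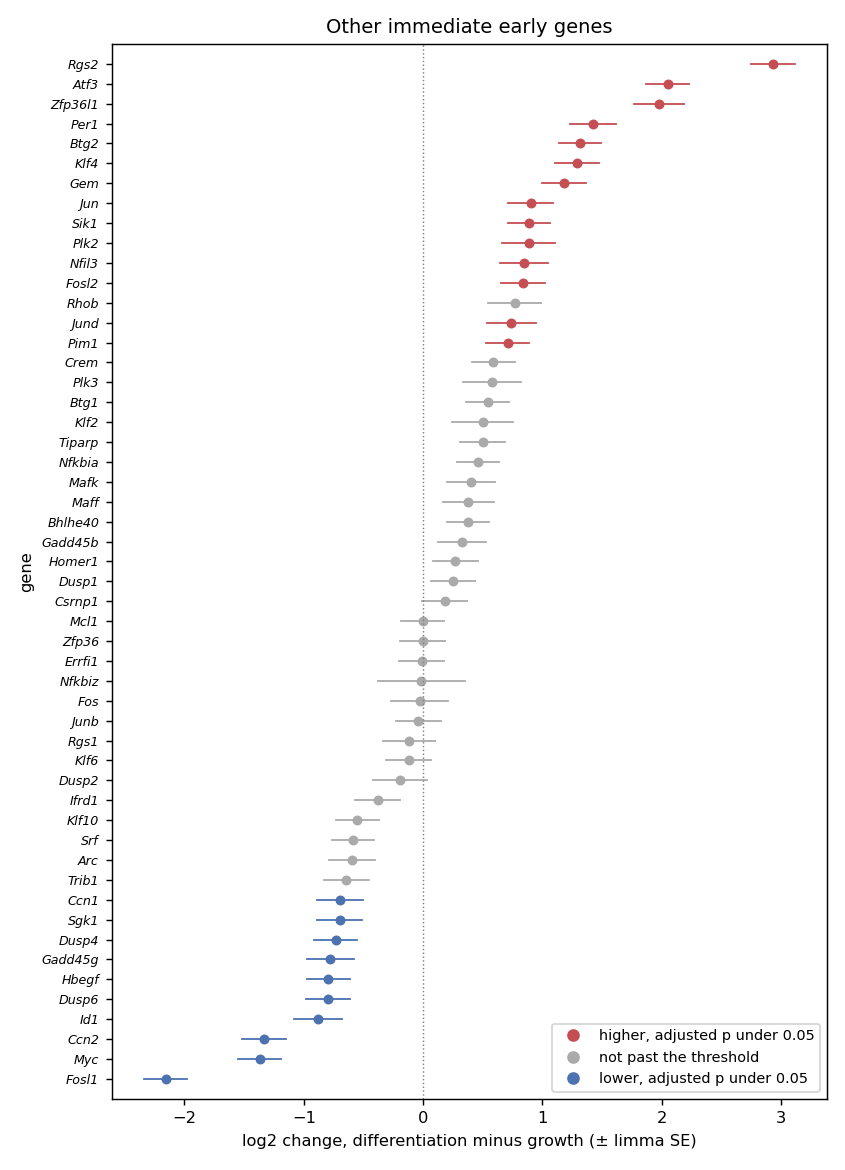
Log2 change (differentiation minus growth, horizontal axis, ± limma SE) of the 52 measured immediate early genes outside the 3 families, sorted by change; red points are the 14 that rose, blue the 10 that fell and grey those that did not pass. Rgs2 (2.93) is at the top and Fosl1 (-2.16) at the bottom.

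The genes whose profile over the 4 arrays was nearest to that of Nr4a1 were C1qtnf1, a secreted relative of adiponectin, the orphan receptor gene Gpr153 and Aldoc, a glycolytic aldolase. Their distances, on centred log2 values, were 0.10, 0.11 and 0.15, and their changes 2.40 ± 0.19, 2.51 ± 0.18 and 2.46 ± 0.19 SE. Nearest to Nr4a3 were Tcim (distance 0.09), the autophagy kinase gene Ulk1 (0.10) and Tgfb2, a growth factor of the TGF-beta family (0.13), with changes of 1.04 ± 0.20, 0.97 ± 0.18 and 1.09 ± 0.18 SE. Tcim, Ulk1 and Tgfb2, like Nr4a3, lost their calls without either differentiation array, and Tcim also without growth replicate 2. Tcim and Ulk1 lost theirs with an offset of 1 too (limma adjusted p = 0.0586 and 0.0510). With 4 arrays in 2 conditions, likeness mostly means a change of the same size, and it describes these arrays only.

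Genes beside the members on the chromosome, in the gene order of RefSeq assembly GRCm38.p6, were read to see whether a change extended to neighbours. Among the nearest measured protein-coding genes on either side, 18 in all, 3 rose and 1 fell, where 16.2% of all clusters were called. These 4, and the uncalled neighbours of Nr4a1 and Nr4a3, are named after their values were seen. Grasp, a scaffold protein gene next to Nr4a1, read 425 and 438 in differentiation, against 182 and 225 in growth (log2 change 1.04 ± 0.19 SE, limma adjusted p = 0.00999). The neighbour of Nr4a1 on the other side, Atg101, did not pass (0.17 ± 0.18 SE, adjusted p = 0.545). Neither neighbour of Nr4a3 passed, with Sec61b at 0.29 ± 0.18 SE and Stx17 at 0.04 ± 0.23 SE. Gpd2, beside Nr4a2, fell (-0.96 ± 0.20 SE, adjusted p = 0.0154). Jmjd1c, beside Egr2, rose by 0.90 ± 0.24 SE (adjusted p = 0.0434) and Flot1, beside Ier3, by 0.71 ± 0.18 SE (adjusted p = 0.0359). The calls of Grasp, Gpd2, Jmjd1c and Flot1 were lost without growth replicate 1 and without either differentiation array. That of Flot1 was lost without growth replicate 2 too. All 4 were lost with an offset of 1 (limma adjusted p 0.0504 to 0.129).

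Nr4a1 passed the threshold under all 12 alternative settings, with log2 changes of 2.35 to 2.50 and limma adjusted p up to 0.0133. Nr4a3 passed under 8 of the 11 in which it was tested, with changes of 0.89 to 1.36; with the dimmest 25% of clusters left out it was itself removed. The other 7 genes passed under none.

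**Figure D4:**
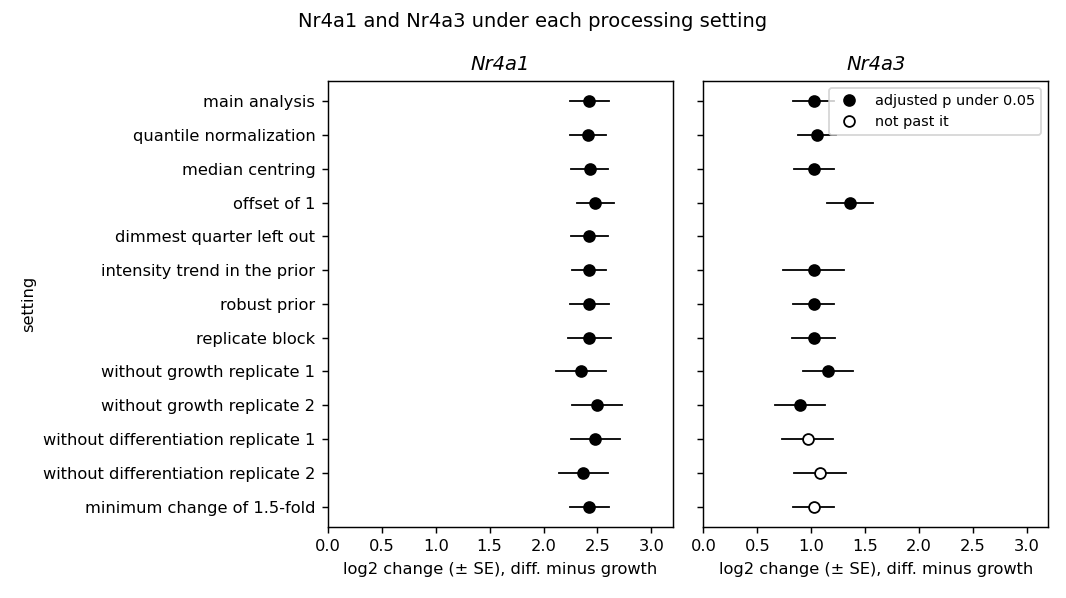
Log2 change (differentiation minus growth, ± SE) of Nr4a1 (left) and Nr4a3 (right) under the main analysis and each alternative setting; filled points passed an adjusted p of 0.05, and the test against a minimum change shows the same estimate with another p. Nr4a1 stays between 2.35 and 2.50, and Nr4a3 is open without either differentiation array and against the minimum change.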

How the data were processed

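The deposited intensity of a transcript cluster is a linear PLIER summary of its probes (build mm9, as the submitters' processing notes list it); how the authors corrected background and scaled arrays is not given in the sources used. Groups and replicate numbers came from the sample titles. Clusters were named from the platform annotation, with 989 carrying several symbols and 731 none; 14883 of the single symbols were matched to RefSeq by Entrez number. For lists, the brightest cluster of a gene was used. Values were taken as log2(intensity + 16) and tested over all clusters by lmFit and eBayes of limma 3.58.1 under R 4.3.3, two-sided and without pairing. The procedure was tested on simulated data. The changed clusters in them all lay above the median growth value, so this test does not cover dim genes such as Nr4a3.

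The members, lists and tests were chosen with earlier results of these data known. Besides the members and some chromosomal neighbours, genes named were up to 4 per list and direction by adjusted p, all of a count of 5 or fewer, Srf, Fos, Nab2, Myog, Myod1 and Mki67, and for each called member the 3 nearest profiles among genes with a mean log2 value of at least 7. The 12 alternative settings covered normalization, centring, offset, dim clusters, both priors, a replicate block, arrays left out and a minimum change. Protein sequences were not used here. If the arrays of a condition share a culture, p-values measure technical spread only.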

Additional observations from a re-analysis of the deposited data

How the results depend on the processing

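Counts are given as higher and lower in differentiation. With 1 array left out, between 1 and 2 of the 9 genes were higher (1 without either differentiation array), as were 305 to 1189 of all clusters, 0 relatives and partners, 6 to 11 other immediate early genes and 1 to 5 upstream genes; 446 to 839 of all clusters, 0 to 1 relatives and 3 to 4 other immediate early genes were lower. The change of Ier5 ranged from -0.23 to 0.020 over those settings and was above 0 without growth replicate 2; it passed in none. With an offset of 1 the counts were 528 and 622 for all clusters, 0 and 0 for relatives, 7 and 3 for other immediate early genes and 1 higher upstream gene. With the dimmest 25% left out, 1 of the 9 genes was higher (Nr4a3 was not tested), as were 2 relatives, and 1 upstream gene was lower. An intensity trend in the prior gave 2415 and 1947 for all clusters, 2 and 3 for relatives and 10 and 3 for upstream genes, and a robust prior 0 higher relatives. Against a minimum change of 1.5-fold, 1 of the 9 genes was higher, with 204 and 355 of all clusters, 0 and 0 relatives, 5 and 2 other immediate early genes and 1 upstream gene. The cause was not tested, beyond the fewer arrays or clusters that some settings use. With the replicate number as a block, 2 of the 9 genes were higher (Nr4a1 2.42 and Nr4a3 1.02) and 1369 and 1195 of all clusters; same-numbered arrays deviated together at a correlation of -0.04, and the block changed no call of the 9. Quantile normalization and median centring moved no count here by over 1.5 times. Signal near the floor limits Nr4a3, Fos and Mef2d, as well as Ptprc, whose change was -0.94 and became -2.03 with an offset of 1, and Atf3, whose change was 2.05 and became 2.51.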
